A study of Mus musculus with 4 samples.

Results

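A set of 10 genes that encode brakes on mitogen-activated protein (MAP) kinase signalling was followed in mouse CD8 T cells that overexpressed the transcription factor BATF. They were chosen by gene name, as inducible members of 3 families: the dual-specificity phosphatases Dusp1, Dusp2, Dusp4, Dusp5, Dusp6 and Dusp10, the Sprouty genes Spry1 and Spry2, and the SPRED genes Spred1 and Spred2. All 10 were found among the 24312 genes of the deposited table. The list was drawn up with earlier results of the same libraries known, so the levels and differences below are a description of these genes, and nothing is read from how many of them passed a test.

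CD8 T cells carrying the P14 T cell receptor transgene, specific for the viral peptide gp33, came from mice on a C57BL/6 background. Cells were stimulated with gp33 at 100 ng/ml for 1 day and transduced with a retrovirus. One group, MIG, received the empty vector MSCV-IRES-GFP, and the other, BATF, received the same vector carrying Batf. After 1 more day the cells were expanded for 2 days in interleukin 2 (IL-2) at 10 ng/ml, CD8+ GFP+ cells were sorted, and the sorted cells were kept for 2 days in IL-2 at 1 ng/ml before RNA was taken. Both groups therefore shared the receptor transgene, the peptide, the IL-2, the viral backbone and GFP, and differed in the Batf insert, whose level was set by a viral vector and not by the cell's own gene. Each group had 2 libraries, described by the submitters as biological replicates. The sources used here do not state whether they came from separate mice, so p-values measure the spread between libraries, which may be technical.

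T cell receptor, costimulatory and cytokine signals switch on RAS, which starts the RAF, MEK and ERK kinase cascade, while stress and inflammatory signals act more on the JNK and p38 kinases. Dual-specificity phosphatases of the MAP kinase phosphatase type remove the activating phosphates from the kinases themselves, whereas Sprouty and SPRED proteins act upstream, at the receptor and at RAS and RAF. Many of these genes are themselves induced by ERK activity, so their RNA is both a part of the feedback and a trace of earlier signalling, and RNA level alone does not give phosphatase activity.

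The libraries held between 19004726 and 24795714 fragments assigned to genes. Batf, the transduced gene, had 36.1 and 26.5 CPM (counts scaled to library size) in MIG against 1342 and 934 CPM in BATF. It rose 36.3-fold, a log2 difference of 5.18 ± 0.24 (SE; adjusted p = 0.00188, edgeR quasi-likelihood test with Benjamini-Hochberg adjustment over 13008 genes, n = 2 per group), and each library matched its label. All 7 CD8 T cell markers were at 175 CPM or more in every library, with summed levels of 3596 and 3535 CPM in MIG and 2972 and 3209 CPM in BATF. All 7 had a log2 difference below 0, with a median of -0.19, and 0 passed the edgeR test. Over all genes tested, 6698 of 13008 were below 0. Of 14 markers of other cell types, 3 had a mean above 1 CPM, namely Itgam, Itgax and Foxp3. Itgam was higher in replicate 1 of both groups, at 7.68 and 3.20 CPM in MIG and 6.49 and 2.62 CPM in BATF. No marker of that list was at 0 in every library, but the myeloid gene Lyz2 did not exceed 0.340 CPM. The list summed to 29.6 and 29.7 CPM in MIG and 45.9 and 37.8 CPM in BATF, and without the integrin genes Itgam and Itgax, which activated CD8 T cells can also express, to 3.88 and 4.81 CPM against 4.96 and 3.68 CPM. Itgax itself was at 18.1 and 21.6 CPM in MIG and 34.4 and 31.5 CPM in BATF (log2 0.73 ± 0.14 SE; adjusted p = 0.0716, edgeR; called by DESeq2 and without MIG replicate 2), while Cd8a was at 659 and 750 CPM against 423 and 599 CPM (log2 -0.46 ± 0.16 SE; adjusted p = 0.337, edgeR; called without BATF replicate 2) and Cd8b1 at 675 and 656 CPM against 498 and 593 CPM (log2 -0.29 ± 0.10 SE; adjusted p = 0.337, edgeR). The part of these marker differences in the values below was not tested, and in bulk RNA fewer cells of a type and less RNA per cell cannot be told apart.

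Per length, the 10 brakes spanned a wide range of RNA levels. In FPKM, the authors' unit, which divides fragments by transcript length and library size, Dusp2 was highest in every library, at 108 and 122 FPKM in MIG and 113 and 148 FPKM in BATF. Dusp2 encodes a nuclear phosphatase first described in activated T cells, and it alone made up 60.6% and 60.3% of the members' summed FPKM in MIG and 57.7% and 58.8% in BATF. Dusp5 came second in each library, at 40.5 and 43.7 FPKM in MIG and 47.8 and 52.0 FPKM in BATF. In MIG, Dusp6, Dusp10 and Dusp1 followed, with ranges that overlapped between neighbours in that order, then Spred2, Dusp4, the overlapping pair Spry2 and Spry1, and Spred1 at 0.706 and 0.864 FPKM. In BATF, Dusp6, Dusp1 and Dusp4 overlapped behind Dusp5, and Dusp10, Spry2 and Spred2 came next. Spred1 and Spry1 were lowest there, with overlapping ranges. Thus Dusp4 and Spry2 stood higher in the order of the BATF libraries than in that of the MIG libraries, and Dusp10 and Spred2 stood lower.

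**Figure D1:**
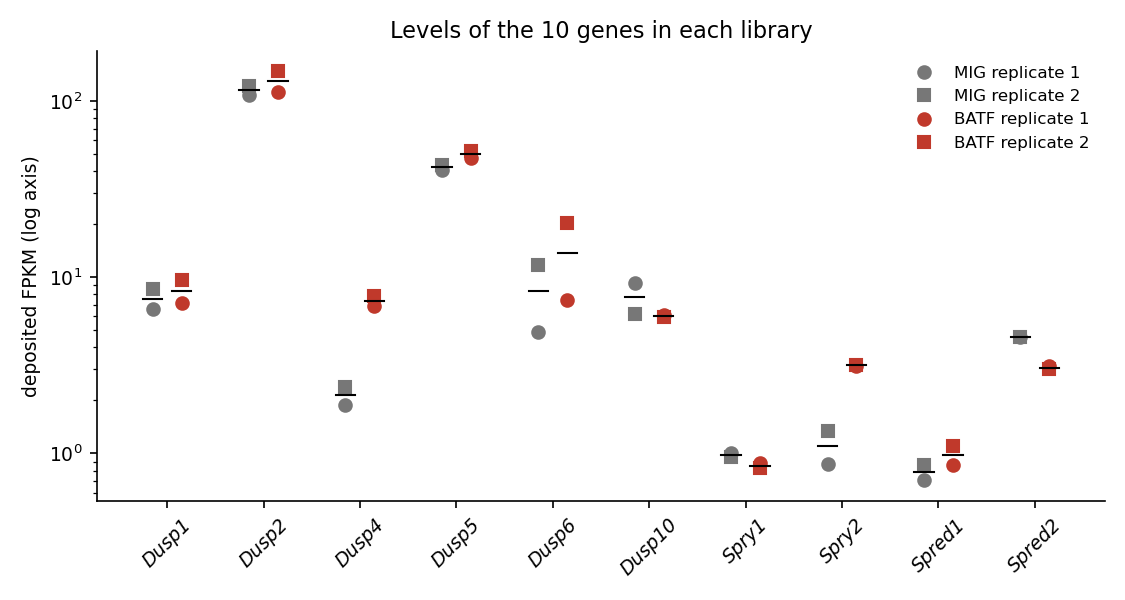
RNA level of the 10 genes in each library, in FPKM on a log axis; each point is 1 library, MIG grey and BATF red, and each line a group mean (n = 2). Dusp2 lies above 100 FPKM in all 4 libraries, the Dusp4 and Spry2 points of the groups are separate, and the Dusp6 points of each group are spread widely.

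Promoter sequences are shown for the members that carry a signal-response motif, Dusp1 and Dusp5, and for Spry2 and Spred2, whose groups did not overlap, in opposite directions. Each is the RefSeq window from 250 bases before to 50 bases after the gene's start (build GRCm38.p6), and 9 of the 10 members matched such a window, Dusp4 being the exception. The windows are Dusp1, chr17:26508423-26508722, minus strand; Dusp5, chr19:53528895-53529194, plus strand; Spry2, chr14:105896770-105897069, minus strand; and Spred2, chr11:19924192-19924491, plus strand. Capitals mark the cyclic AMP response element TGACGTCA in Dusp1 and the CArG boxes in Dusp5.
Dusp1: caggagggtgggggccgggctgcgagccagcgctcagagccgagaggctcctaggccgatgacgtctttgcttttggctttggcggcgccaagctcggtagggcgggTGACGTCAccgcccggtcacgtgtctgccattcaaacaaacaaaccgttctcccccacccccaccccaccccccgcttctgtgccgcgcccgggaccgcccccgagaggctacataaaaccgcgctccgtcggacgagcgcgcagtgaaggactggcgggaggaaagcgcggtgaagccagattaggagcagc
Dusp5: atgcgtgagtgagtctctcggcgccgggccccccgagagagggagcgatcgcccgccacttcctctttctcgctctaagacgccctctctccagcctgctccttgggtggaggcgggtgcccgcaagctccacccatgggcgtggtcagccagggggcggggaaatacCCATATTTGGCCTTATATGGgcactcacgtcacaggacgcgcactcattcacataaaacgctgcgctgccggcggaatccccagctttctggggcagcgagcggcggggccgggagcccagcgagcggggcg
Spry2: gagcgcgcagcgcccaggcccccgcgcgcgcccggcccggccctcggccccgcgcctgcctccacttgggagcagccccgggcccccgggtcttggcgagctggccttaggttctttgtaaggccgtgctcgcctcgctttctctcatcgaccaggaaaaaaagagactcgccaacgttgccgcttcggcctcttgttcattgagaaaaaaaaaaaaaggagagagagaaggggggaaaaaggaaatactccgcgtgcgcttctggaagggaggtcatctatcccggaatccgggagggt
Spred2: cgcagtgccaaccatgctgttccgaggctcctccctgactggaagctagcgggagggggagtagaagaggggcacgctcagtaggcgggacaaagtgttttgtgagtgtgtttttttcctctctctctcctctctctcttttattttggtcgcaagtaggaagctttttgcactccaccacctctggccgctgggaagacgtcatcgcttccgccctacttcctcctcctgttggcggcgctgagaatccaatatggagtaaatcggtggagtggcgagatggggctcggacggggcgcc
The response element, a binding motif of CREB family factors, lay 143 to 136 bases before the Dusp1 start and occurred on either strand in 1.79% of 32851 mouse windows of the same length. The Dusp5 window held 2 CArG boxes, the motif of serum response factor, from 82 to 73 and from 72 to 63 bases before the start, a motif found in 1.63% of windows. The AP-1 motif TGANTCA, at which BATF binds as a dimer with JUN proteins, was in 0 of the 9 members' windows and in 7.81% of all windows. TATAAA was likewise in 0 of the 9, against 13.6% of all windows, and the GC box GGGCGG, left in lower case, was in 7 of the 9, all but Dusp6 and Spry2, against 35.7%. The members' windows held 57 to 72.3% G and C, above the median of 52.7% over all windows. These matches describe the letters of the windows and are not measurements of binding.

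Between the groups, 1 member passed the test: Dusp4 rose in BATF. Over all 13008 genes tested, 142 passed at an adjusted p under 0.05 (1.09%), 115 of them higher in BATF (0.884%) and 27 lower (0.208%). The groups did not overlap for 6 of the 10 members, with Dusp4, Dusp5 and Spry2 higher in both BATF libraries and Dusp10, Spry1 and Spred2 lower, while 38.7% of all genes tested had groups that did not overlap. The members' median log2 difference, BATF over MIG, was 0.22, beside -0.0056 over all genes tested, with 7 members above 0 and 3 below. Because the list was chosen with these values known, the counts and the median are given as a description. The members' median was -0.04 without BATF replicate 2 and 0.35 without MIG replicate 2. With 1 library left out in turn, the log2 difference ran from 1.60 to 1.99 for Dusp4 and from 1.22 to 1.89 for Spry2. It ran from -0.16 to 1.53 for Dusp6 and from -0.60 to -0.06 for Dusp10. Each of these fits keeps a single library in 1 group. More of all genes tested were called in each than with every library kept, so members called there are not counted.

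**Figure D2:**
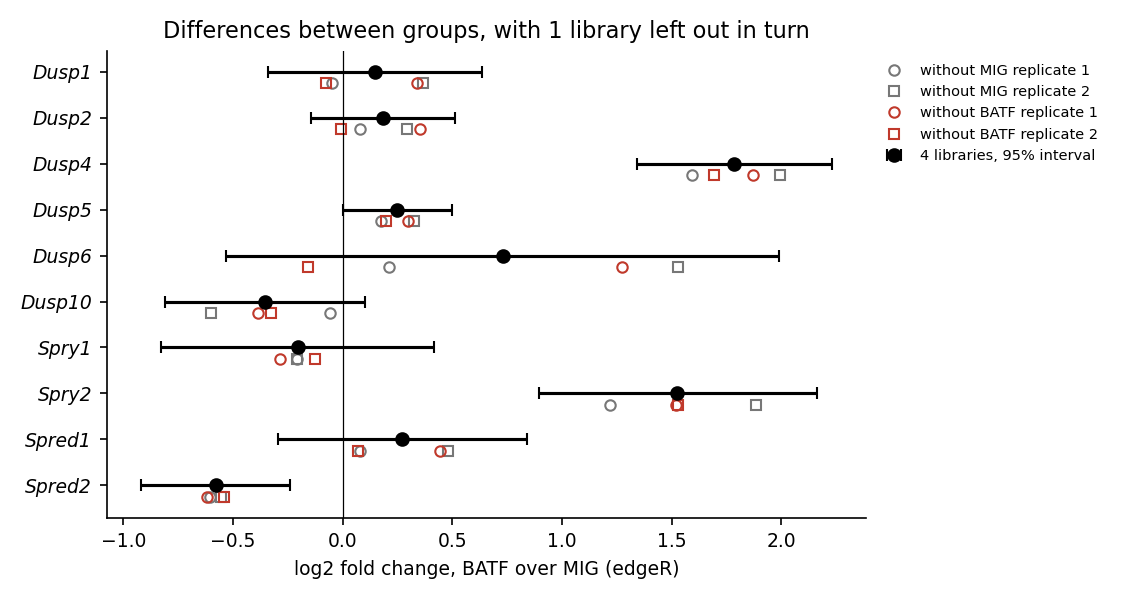
Log2 difference in RNA level, BATF over MIG (x axis), for each member; black points are the edgeR estimates from the 4 libraries with 95% intervals, and open symbols the estimates with 1 library left out. Dusp4 at 1.79 and Spry2 at 1.53 lie farthest from 0, and the Dusp6 interval, from -0.53 to 1.99, is the widest.

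Dusp4 encodes a nuclear phosphatase that acts on ERK, JNK and p38, and its RNA rises after T cell activation. It was at 4.17 and 5.53 CPM in MIG against 15.7 and 17.7 CPM in BATF, from 102, 114, 297 and 385 fragments in that order. Both BATF libraries were far above both MIG libraries. Dusp4 rose 3.45-fold (95% interval 2.54 to 4.70), a log2 difference of 1.79 ± 0.19 (SE; adjusted p = 0.0148, edgeR quasi-likelihood test, n = 2 per group). With each library left out in turn the log2 difference lay between 1.60 and 1.99. The ratio of Dusp4 to Dusp1 FPKM was 0.284 and 0.280 in MIG and 0.960 and 0.816 in BATF, and that of Dusp4 to Dusp5 was 0.0463 and 0.0549 against 0.143 and 0.151. A nuclear phosphatase well under the FPKM level of Dusp1 in the control libraries was thus near it in the BATF libraries.

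The other nuclear phosphatases had smaller differences, and 0 of these 3 genes passed the edgeR test (1, Dusp5, at an unadjusted p of 0.0496; 0 with DESeq2 or limma). Dusp1, an immediate early gene whose product acts on p38 and JNK as well as ERK, was at 11.5 and 15.4 CPM in MIG and at 12.8 and 17.0 CPM in BATF. Its groups overlapped, and the log2 difference was 0.15 ± 0.21 (SE; adjusted p = 0.923, edgeR), with a fold interval of 0.789 to 1.56. Dusp2 was at 153 and 180 CPM in MIG and at 165 and 212 CPM in BATF, also overlapping, with a log2 difference of 0.18 ± 0.14 (SE; adjusted p = 0.783, edgeR). Both signs rested on single libraries: Dusp1 was at -0.05 without MIG replicate 1 and -0.07 without BATF replicate 2, and Dusp2 at -0.0085 without BATF replicate 2. Dusp5, which encodes a nuclear phosphatase specific for ERK, was at 38.6 and 43.1 CPM in MIG and at 46.9 and 50.2 CPM in BATF. The BATF libraries were both higher, by 1.19-fold (95% interval 1.00 to 1.41), and the difference did not pass the adjusted threshold (log2 0.25 ± 0.10 SE; adjusted p = 0.461, edgeR). Summed over Dusp1, Dusp2, Dusp4 and Dusp5, the nuclear phosphatases stood at 157 and 177 FPKM in MIG and 175 and 218 FPKM in BATF, and these sums overlapped.

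Dusp6 encodes the cytoplasmic phosphatase that is specific for ERK and is a widely used readout of ERK activity. It was at 12.6 and 31.7 CPM in MIG and at 19.8 and 53.3 CPM in BATF. The second library of each group was far above the first, so the groups overlapped, and the log2 difference was 0.73 ± 0.53 (SE; adjusted p = 0.767, edgeR), the least certain of the 10. It moved from -0.16 without BATF replicate 2 to 1.53 without MIG replicate 2, and was 1.27 without BATF replicate 1. Egr1, an immediate early transcription factor gene induced through ERK, had a similar spread, at 52.8 and 121 CPM in MIG and at 76.2 and 195 CPM in BATF (log2 0.65 ± 0.49 SE; adjusted p = 0.784, edgeR). The ratio of Dusp6 to Egr1 FPKM was 0.265 and 0.290 in MIG and 0.287 and 0.301 in BATF, a narrow range beside the Dusp6 levels of 4.87 and 11.8 FPKM and of 7.40 and 20.3 FPKM. Against Dusp5, in contrast, the Dusp6 ratio was 0.120 and 0.270 in MIG and 0.155 and 0.390 in BATF. Egr1 was named for its difference between the groups in these same libraries. Likeness of patterns was not tested, since the libraries are too few. Replicate 2 was above replicate 1 by 2.51-fold for Dusp6 in MIG and 2.69-fold in BATF, by 2.29-fold and 2.56-fold for Egr1, by 2.93-fold and 1.73-fold for the AP-1 gene Fos, and by 3.11-fold and 1.52-fold for Egr2, Fos and Egr2 being named after their values were seen. Of the 22 tested ERK-responsive genes, 9 were higher in replicate 2 in both groups, 4 were lower in both and 9 had opposite signs. Over all genes tested, 30.4% were higher in replicate 2 in both groups by any amount. Of all genes tested, 37 (0.284%) were at least 2-fold higher in replicate 2 in both groups. The orphan nuclear receptor gene Nr4a1, also induced by T cell receptor signals and named after its values were seen, went the other way, at 0.615 and 0.588 of its replicate 1 level. Which difference between the libraries moved these genes was not tested.

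**Figure D3:**
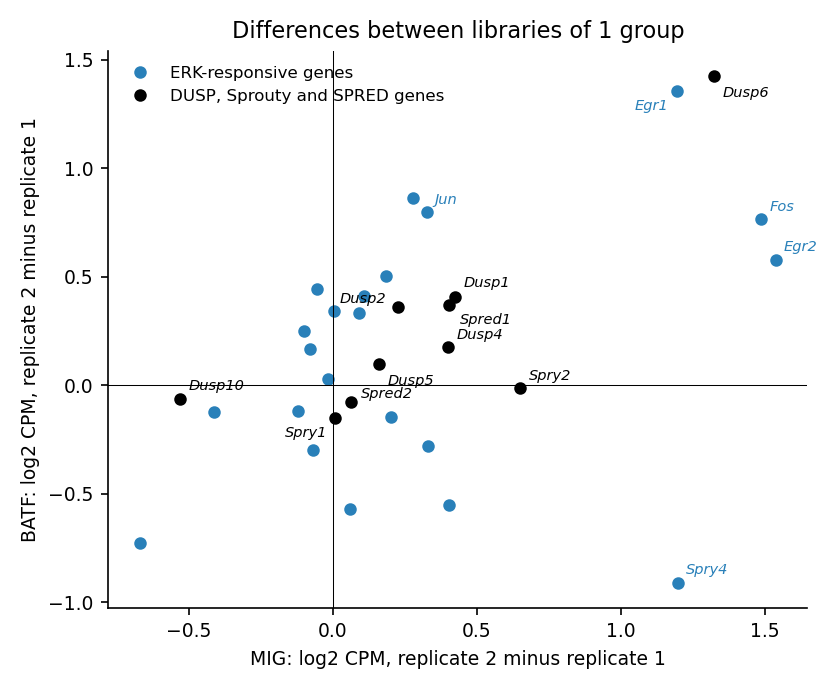
Difference between the libraries of each group, replicate 2 minus replicate 1 on the log2 CPM scale, in MIG (x axis) and BATF (y axis); black points are the 10 members and blue points the ERK-responsive list. Dusp6 and Egr1 lie together at the upper right, whereas the other members lie within 1 log2 unit of 0 on both axes.

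Dusp10 encodes a phosphatase that acts on JNK and p38 and, in mice, restrains T cell cytokine production. It was at 23.4 and 16.2 CPM in MIG and at 15.8 and 15.2 CPM in BATF. Both BATF libraries were lower, but only just below MIG replicate 2, and the log2 difference was -0.35 ± 0.19 (SE; adjusted p = 0.616, edgeR). MIG replicate 1 carried most of it: the log2 difference was -0.06 without that library, and -0.60 without MIG replicate 2.

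Of the Sprouty pair, Spry2 had the larger difference between the groups. Sprouty proteins are induced by receptor signalling and dampen its passage to RAS and ERK. Spry2 was at 1.63 and 2.62 CPM in MIG and at 6.12 and 6.07 CPM in BATF, from 40, 54, 116 and 132 fragments. Both BATF libraries were well above MIG, at 2.88-fold (95% interval 1.86 to 4.48), and the log2 difference of 1.53 ± 0.27 (SE) missed the threshold after adjustment (adjusted p = 0.0598, edgeR). DESeq2 gave an adjusted p of 0.00294, and edgeR with no filter on low counts gave 0.00399. The difference did not pass with limma, at 0.0730 on log2(FPKM + 1) and 0.0915 on log2(FPKM + 0.1). With the first and the second MIG library left out, the log2 difference was 1.22 and 1.89. With the first and the second BATF library left out, it was 1.52 and 1.53. Spry1, also expressed in activated T cells, was at 2.12 and 2.14 CPM in MIG and at 1.95 and 1.75 CPM in BATF, from between 37 and 52 fragments a library. The BATF libraries were slightly lower, with a log2 difference of -0.21 ± 0.26 (SE; adjusted p = 0.912, edgeR), a gap within the counting error of so few fragments. The ratio of Spry2 to Spry1 FPKM was 0.867 and 1.40 in MIG and 3.58 and 3.84 in BATF, so the genes were at similar levels in the control libraries and Spry2 was the higher in both BATF libraries. Their sum was 1.87 and 2.30 FPKM in MIG and 4.03 and 4.0 FPKM in BATF.

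Of the SPRED pair, Spred2 was the lower in both BATF libraries. SPRED proteins bring the RAS GTPase-activating protein neurofibromin to the membrane, where it switches RAS off. Spred2 was at 12.2 and 12.8 CPM in MIG and at 8.59 and 8.13 CPM in BATF. Replicates were close and both BATF libraries were lower, at 0.670 of the MIG level (95% interval 0.529 to 0.848), but the log2 difference of -0.58 ± 0.14 (SE) did not pass (adjusted p = 0.160, edgeR; 0.276, DESeq2). Spred1 was at 3.72 and 4.95 CPM in MIG and at 4.53 and 5.88 CPM in BATF, with overlapping groups and a log2 difference of 0.27 ± 0.24 (SE; adjusted p = 0.839, edgeR). The Spred1 difference was 0.08 and 0.48 with the first and the second MIG library left out, and 0.45 and 0.07 with the first and the second BATF library left out. The ratio of Spred2 to Spred1 FPKM was 6.49 and 5.34 in MIG and 3.63 and 2.72 in BATF. The summed SPRED level was 5.29 and 5.47 FPKM in MIG and 3.99 and 4.11 FPKM in BATF. Nf1, which encodes neurofibromin, was at 5.76 and 6.50 CPM in MIG and at 8.96 and 7.90 CPM in BATF, a log2 difference of 0.46 ± 0.17 (SE; adjusted p = 0.372, edgeR).

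**Figure D4:**
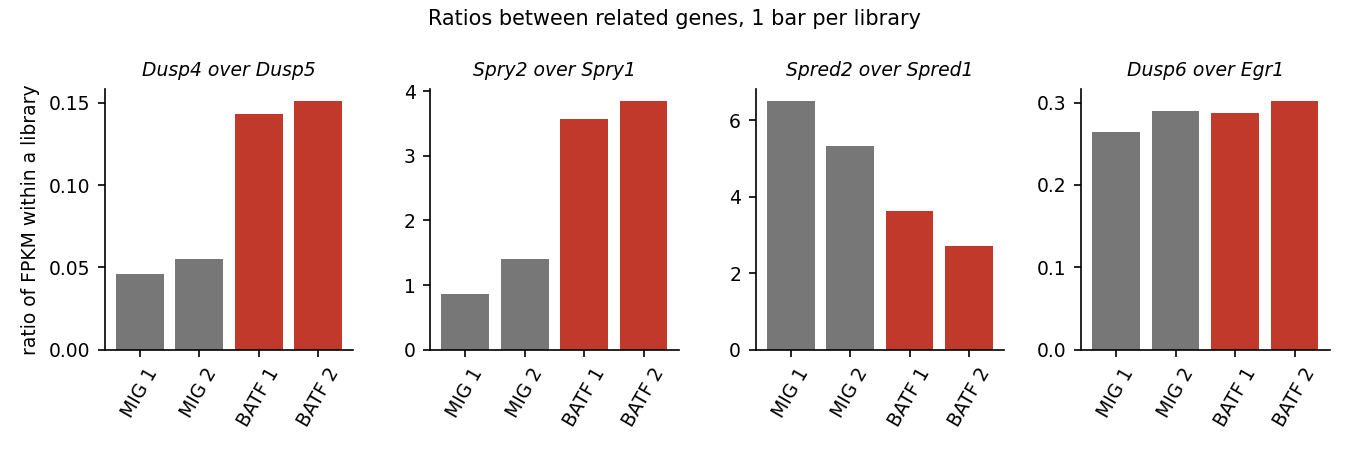
Ratios of FPKM between related genes, 1 panel a ratio and 1 bar a library, with MIG in grey and BATF in red; each axis starts at 0. The Dusp4 to Dusp5 and Spry2 to Spry1 ratios are higher in both BATF libraries than in both MIG libraries, the Spred2 to Spred1 ratio is lower, and the Dusp6 to Egr1 ratio stays between 0.265 and 0.301.

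All 10 members summed to 179 and 203 FPKM in MIG and 197 and 252 FPKM in BATF, which overlapped. Without Dusp2 the sums were 70.4 and 80.4 FPKM in MIG and 83.3 and 104 FPKM in BATF, and the BATF libraries were then both higher. The nearest of these sums, 80.4 and 83.3 FPKM, were closer than the replicate levels of Dusp6 alone. Dusp6 was at 4.87 and 11.8 FPKM in MIG and at 7.40 and 20.3 FPKM in BATF.

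Among the other dual-specificity phosphatase genes, 13 of 20 were tested and 1 passed: Dusp16 fell. Dusp16 encodes a JNK and p38 phosphatase, the same substrates as Dusp10. It was at 5.27 and 5.24 CPM in MIG and at 1.95 and 1.52 CPM in BATF, a log2 difference of -1.60 ± 0.24 (SE; adjusted p = 0.0337, edgeR), and the call was lost without MIG replicate 1 (adjusted p = 0.0525) and with limma on log2(FPKM + 1) (adjusted p = 0.219). The ratio of Dusp10 to Dusp16 FPKM was 8.67 and 5.77 in MIG and 15.9 and 19.6 in BATF. Dusp14, an atypical phosphatase gene, was named after its values were seen. It was at 1.76 and 1.02 CPM in MIG and at 4.80 and 4.96 CPM in BATF. Its log2 difference was 1.80 ± 0.30 (SE, adjusted p = 0.0518, edgeR). The adjusted p was 0.0022 with DESeq2 and 0.00288 with edgeR and no filter on low counts. With limma it was 0.0633 on log2(FPKM + 1) and 0.0799 on log2(FPKM + 0.1). With 1 library left out, the log2 difference ran from 1.46 to 2.26. Dusp7, whose product is a cytoplasmic ERK phosphatase related to that of Dusp6, was at 27.1 and 22.7 CPM in MIG and at 37.0 and 32.5 CPM in BATF (log2 0.48 ± 0.14 SE; adjusted p = 0.222, edgeR). Dusp3, an ERK and JNK phosphatase gene, was at 3.96 and 5.05 CPM in MIG and at 6.91 and 5.38 CPM in BATF (log2 0.45 ± 0.22 SE; adjusted p = 0.581, edgeR). The median log2 difference of this list was -0.03. Of the remaining Sprouty and SPRED genes, Spry3 had 0 fragments in every library, Spred3 stayed under 0.5 CPM, and Spry4 was at 0.286 and 0.777 CPM in MIG and at 0.685 and 0.322 CPM in BATF, and these 3 genes were named after their values were seen.

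Genes around the brakes did not pass the edgeR test. Of 17 tested genes of RAS activation, 0 passed, with 3 of them above and 3 below MIG at p under 0.05 before adjustment and a median log2 difference of 0.03. Of 37 tested MAP kinases and their scaffolds and targets, 0 passed, with 3 higher and 4 lower before adjustment and a median of 0.01. Of 21 tested genes for other brakes on RAS and MAP kinases, 0 passed, with 6 higher and 2 lower before adjustment and a median of 0.14. Over all 13008 genes tested, 870 were higher and 532 lower at p under 0.05 before adjustment in edgeR, together 10.8%. DESeq2 called 2, 1 and 0 genes of these lists, and limma on log2(FPKM + 1) called 0 in each. With no filter on low counts, edgeR called 1 in each. In some fits with 1 library left out, edgeR called genes of these lists, and in those fits the calls over all genes tested rose as well. Ksr1, a scaffold that holds RAF, MEK and ERK together, had one of the larger differences, at 25.9 and 21.4 CPM in MIG and 37.8 and 38.1 CPM in BATF (log2 0.68 ± 0.13 SE; adjusted p = 0.0757, edgeR). Rasa4, which encodes a calcium-promoted RAS GTPase-activating protein, was at 13.4 and 8.79 CPM in MIG and at 6.17 and 5.61 CPM in BATF (log2 -0.92 ± 0.23 SE; adjusted p = 0.164, edgeR). The Rasa4 difference was -0.57 without MIG replicate 1 and -1.19, with an adjusted p of 0.00341 in edgeR, without MIG replicate 2. Ksr1 was called by DESeq2. Gab3, an adaptor gene, was at 12.9 and 12.8 CPM in MIG and at 8.44 and 8.64 CPM in BATF (log2 -0.59 ± 0.14 SE; adjusted p = 0.145, edgeR). Rasgrp4, which encodes a guanine nucleotide exchange factor that loads RAS with GTP, was at 10.5 and 13.7 CPM in MIG and at 15.1 and 30.6 CPM in BATF, with the second BATF library set apart (log2 0.92 ± 0.32 SE; adjusted p = 0.331, edgeR; 0.0447, DESeq2). Its log2 difference was 0.32 without BATF replicate 2, 1.34 without BATF replicate 1 and 1.11 without MIG replicate 2. Mapk11, which encodes a p38 kinase, was at 7.48 and 8.15 CPM in MIG and at 3.85 and 5.47 CPM in BATF (log2 -0.74 ± 0.22 SE; adjusted p = 0.233, edgeR). Ptpn5, a tyrosine phosphatase gene whose product also acts on ERK and p38, was named after its values were seen, and stood at 1.27 and 1.12 CPM in MIG and at 3.16 and 3.31 CPM in BATF (log2 1.43 ± 0.26 SE; adjusted p = 0.0689, edgeR).

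Of 22 tested ERK-responsive genes, 0 passed the edgeR test. At p under 0.05 before adjustment, 2 were above MIG and 1 below, beside 10.8% of all genes tested in either direction. DESeq2 and limma called 0, but limma tested only 14 genes of the list, without Etv5 and Egr2. With no filter on low counts, edgeR called 1, Etv5 (adjusted p = 0.0166). In some fits with 1 library left out, edgeR called genes of this list, and there too the calls over all genes tested rose. The median log2 difference of this list was 0.06. Etv5 is an ETS factor gene induced with Sprouty genes and Dusp6 by growth factor signalling in several mouse tissues. It was named after its values were seen. Etv5 was at 0.490 and 0.680 CPM in MIG and at 2.53 and 1.70 CPM in BATF (log2 1.85 ± 0.39 SE, adjusted p = 0.0989, edgeR). With 1 library left out, its log2 difference ran from 1.54 to 2.11. Fosl2, an AP-1 gene, was at 32.9 and 33.1 CPM in MIG and at 23.8 and 30.2 CPM in BATF (log2 -0.29 ± 0.14 SE; adjusted p = 0.565, edgeR). The log2 differences of the list ran from -0.29 for Fosl2 to 1.85 for Etv5. A link between these genes and Dusp4 or Spry2, the members with the largest differences, was not tested.

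**Figure D5:**
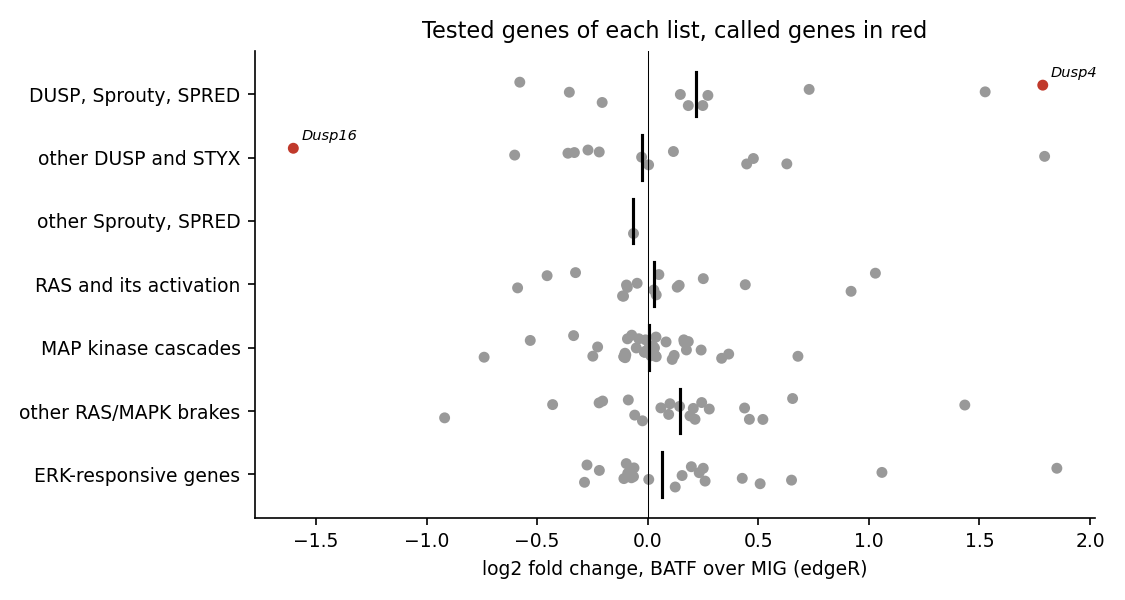
Log2 difference, BATF over MIG (x axis), of every tested gene in each list; each point is 1 gene, red where the edgeR adjusted p was under 0.05, and the black bar is the list's median. The medians of the lists lie near 0, with the members' at 0.22, and Dusp4 and Dusp16 are the genes in red. The members were chosen with these values known, so their median is not ranked against those of the other lists.

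Dusp1 overlaps Ergic1 on the opposite strand and Dusp10 overlaps 1700056E22Rik, and Dusp5, Spry1 and Dusp16 overlap antisense or unlisted transcripts. The labels do not say whether the counting used strand, so reads of these overlapping genes could not be told apart.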

How the data were processed

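RNA-seq was done on 4 libraries in 2 groups. Per the submitters' processing notes, reads were handled with TopHat2 2.1.1, Cufflinks 2.2.2 and Cuffdiff on the mm9 build; neither these notes nor the labels name the gene annotation or the use of strand. The authors deposited, per gene and library, an estimated count of fragments, a scaled fragment signal (the count divided by a library factor, not used in tests) and FPKM, which scales fragments by transcript length and library size. Estimated counts were 97.6% whole, and were rounded to whole numbers for testing. The table numbers replicates 0 and 1, read here as 1 and 2, which names libraries only. Library totals ran from 19004726 to 24795714 fragments. A chi-square per gene between replicates of 17.7 in MIG and 9.49 in BATF showed differences beyond counting noise within each pair.

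Genes were filtered with filterByExpr and TMM-scaled, and BATF was compared with MIG by glmQLFit and glmQLFTest (edgeR 4.0.16, R 4.3.3), with Benjamini-Hochberg adjustment over 13008 genes and a threshold of 0.05; the biological coefficient of variation was 11.3%. CPM used TMM-scaled totals. The fitting was tested on simulated data. Alternatives used DESeq2 1.42.0, limma 3.58.1 on log2(FPKM + 1) and log2(FPKM + 0.1) with FPKM of at least 1 in 2 libraries, RLE scaling, no filter, a replicate block and leaving out each library. Beyond the members and Batf, the genes named were the called ones of each other list and, where fewer than 2 were called, the 2 with the largest absolute log2 difference at a mean of at least 5 CPM; exceptions are stated. The members and lists were chosen with earlier results of these data known. Intervals of counts cover counting error only.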

Additional observations from a re-analysis of the deposited data

How the results depend on the processing

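Dusp4 had the same direction in all 10 alternatives, and stayed past the threshold in those that kept every library. The number of genes called, 142, became 349 with no filter on low counts, 345 with DESeq2, 46 and 51 with limma on log2(FPKM + 1) and log2(FPKM + 0.1), and 248 to 589 with 1 library left out. The members called, 1, became 2 with no filter and 2 with DESeq2. Calls in the lists beside the members, 1, became 6 with no filter, 5 with DESeq2, 0 with limma at either pseudocount and 3 to 12 with 1 library left out. With CPM in place of FPKM, the Dusp2 share of the members' sum was 57.7% in MIG and 55.2% in BATF. With 1 library left out, log2 differences that changed sign ran from -0.074 to 0.37 for Dusp1, -0.0085 to 0.35 for Dusp2, -0.16 to 1.53 for Dusp6, -0.18 to 1.36 for Egr1, -0.081 to 1.45 for Fos, -0.19 to 1.43 for Egr2 and -0.68 to 0.77 for Spry4. The cause was not tested. Spry1 and Spred1 fell below the FPKM minimum used with limma. With 2 libraries a group and 37 to 132 fragments for Spry1, Spry2 and Spred1, small differences in these genes were not detectable.

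The replicate numbers were not taken as pairs, since no label says what they share and there are only 2 of each; the differences between replicates 2 and 1 in the groups correlated at 0.181 over tested genes. Adding the number as a block, which leaves 1 residual degree of freedom, called 1504 of 13008 genes and 29 of 110 tested genes of the other lists. It also called 4 of 10 members: Dusp4, Spry2, Dusp6 (adjusted p = 1.45e-07, edgeR) and Spred2 (adjusted p = 0.000492, edgeR).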

Other observations

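Over the 10 members, 6 were higher in replicate 2 than in replicate 1 in both groups, beside 30.4% of all genes tested; Dusp6 stood out among them in size. Besides the 37 genes at least 2-fold higher in replicate 2 in both groups, 37 were at least 2-fold lower.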
